A study of Mus musculus with 17 samples.

Results

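The comparison covers the livers of Nampt OE and Nampt +/+ (WT) mice 24 h after an injection of saline, with no acetaminophen (APAP) given. Its members are 5 of the 17 liver libraries, chosen by their labels: 2 from Nampt OE mice and 3 from WT mice, all male C57BL/6. OE 1 came from a perfused liver of an 11-week-old mouse and OE 2 from a non-perfused liver of an 11-week-old mouse. WT 1 and WT 2 came from perfused livers of 12-week-old mice and WT 3 from a non-perfused liver of an 11-week-old mouse. The labels do not spell out OE, and the promoter, the cell type and the copy of Nampt behind it are not given in the sources used here. Other saline libraries appear beside them. The 2 from Nampt +/- (Het) mice, both perfused and 11 weeks old, are given as values and also add to the spread behind the p-values. The 1 from a non-perfused 11-week-old WT mouse whose saline is labelled IG is outside the reported fit. Perfusion sets OE 1 apart from OE 2, and age and perfusion set WT 3 apart from WT 1 and WT 2. The labels do not say whether WT 1 and WT 2, or Het 1 and Het 2, are different animals. The p-values therefore cover the spread among these libraries only, and part of it may be technical.

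Nampt encodes nicotinamide phosphoribosyltransferase, the rate-limiting enzyme that salvages nicotinamide into nicotinamide mononucleotide and so into NAD. NAD accepts electrons in glycolysis and fatty acid oxidation and is split by sirtuins, poly(ADP-ribose) polymerases and Cd38, which release nicotinamide again. Hepatocytes also make NAD from tryptophan through the kynurenine route and from nicotinic acid, and they clear nicotinamide by methylation through Nnmt.

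Sequences upstream of 3 genes are shown because their values mark the shared and the opposite behaviour of the OE livers: Pklr, the liver pyruvate kinase, was low in both OE livers, while Hspa1b and Hspb1, heat shock proteins, were low in OE 1 and high in OE 2. Each is the 250 bases before the RefSeq gene start on build GRCm38.p6, 5′ to 3′ on the strand of the gene. Capitals mark, in Pklr, CACGGG and CCCGTG with 5 bases between them, the known element of this gene to which the glucose-responsive factor ChREBP binds, and GAANNTTC or TTCNNGAA, the core of heat shock elements, in the others. The search for the Pklr pair used the letters known from this gene, so finding it there is no result. Both strands were searched, and GAANNTTC and TTCNNGAA can overlap in a longer element.
Pklr, chr3:89136373-89136622, plus strand: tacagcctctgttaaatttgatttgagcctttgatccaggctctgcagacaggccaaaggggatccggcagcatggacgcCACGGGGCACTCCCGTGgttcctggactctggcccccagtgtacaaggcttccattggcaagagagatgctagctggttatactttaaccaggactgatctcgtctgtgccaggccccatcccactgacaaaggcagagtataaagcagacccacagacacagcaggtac
Hspa1b, chr17:34959239-34959488, minus strand: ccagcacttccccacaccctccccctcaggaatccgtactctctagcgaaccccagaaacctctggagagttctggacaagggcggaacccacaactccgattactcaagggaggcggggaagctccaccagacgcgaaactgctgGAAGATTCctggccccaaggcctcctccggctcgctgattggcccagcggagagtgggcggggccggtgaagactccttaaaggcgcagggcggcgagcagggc
Hspb1, chr5:135887669-135887918, plus strand: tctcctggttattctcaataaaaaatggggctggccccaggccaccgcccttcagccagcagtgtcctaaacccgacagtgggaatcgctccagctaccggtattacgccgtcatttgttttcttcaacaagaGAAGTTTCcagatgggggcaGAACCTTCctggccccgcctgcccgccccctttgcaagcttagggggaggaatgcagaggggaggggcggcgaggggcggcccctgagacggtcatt
The Pklr match lay at -170 to -154 relative to the gene start and was the only 1 among 32851 promoter windows of 27025 genes. The Hspa1b match lay at -104 to -97, and the Hspb1 matches lay at -117 to -110 and at -97 to -90. A heat shock match was present for 7 of the 13 heat shock genes that had a promoter sequence (Dnaja1, Fkbp4, Hspa1b, Hspb1, Hspd1, Hspe1 and Hsph1), against 3932 of all 27025 genes, or 14.5%. A match is a description of the letters and not a site of binding.

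Values are FPKM (fragment numbers corrected for gene length and library size), so the sequencing depth behind them is unknown. The summed FPKM was 793467 in OE 1 and 615953 in OE 2, against 593745, 593577 and 702919 in the 3 WT libraries, and between 10640 and 10855 genes reached 1 FPKM in each of the 5. Core hepatocyte genes summed to 25729 and 21375 FPKM in OE livers, against 21146, 19979 and 22337 FPKM in WT livers, although Alb, the albumin gene, was listed at 0 in all 5. No OE library shared a sequencing lane with a WT library (L008 and L004 for OE, L007, L007 and L006 for WT), so genotype and lane cannot be told apart. Both Het libraries were run in L008, the lane of OE 1, so a likeness of Het to OE livers cannot be told apart from lane. OE 2 stood apart: on the first principal component of the 8 saline libraries, which held 36.1% of the variance, it lay at 39.99, OE 1 at -18.67, the WT libraries between -15.72 and -7.79, and the Het libraries at 13.27 and 18.46. In a bulk liver, fewer cells of a type and less RNA per cell cannot be told apart.

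Nampt itself was higher in both OE livers than in any of the 3 WT livers, by a modest amount. It stood at 22.4 FPKM in OE 1 and 27.2 FPKM in OE 2, against 18.0, 15.3 and 18.0 FPKM in WT 1, WT 2 and WT 3. The groups did not overlap, with means of 24.8 ± 3.42 FPKM in OE livers and 17.1 ± 1.54 FPKM in WT livers (SD, n = 2 and n = 3). The fitted log2 difference was 0.48 ± 0.13 (SE) with a 95% interval of 0.16 to 0.80, and its adjusted p was 0.389 in limma, above the threshold of 0.05. Within perfused livers the difference in log2(FPKM + 1) was 0.41, and within non-perfused livers it was 0.57. The IG library of a WT mouse had 23.4 FPKM, above OE 1, and the Het libraries had 26.02 and 23.1 FPKM, so this level did not separate the Nampt +/- livers from OE livers or set them below WT. The level of NAMPT protein was not measured here.

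Among 19 measured genes of NAD synthesis and nicotinamide clearance, 4 were higher in both OE livers than in all WT livers and 3 were lower, with no gene past the test. Over all 10840 genes tested, 943 (8.7%) were higher in this way and 1340 (12.4%) were lower. Nnmt, which methylates nicotinamide for excretion, had 214 and 198 FPKM in OE livers, against 88.9, 62.1 and 87.8 FPKM in WT livers, a log2 difference of 1.36 ± 0.21 with an adjusted limma p of 0.14. Both OE values were above every WT value by more than 2-fold. Ido2, a tryptophan dioxygenase, had 11.3 and 7.61 FPKM in OE livers, against 15.6, 15.2 and 19.7 FPKM in WT livers. Afmid, the formamidase of the kynurenine route, had 50.3 and 58.3 FPKM in OE livers, against 39.2, 35.8 and 45.4 FPKM in WT livers. Tdo2, the main hepatic tryptophan dioxygenase, named after its values were seen, was 769 and 842 FPKM in OE livers, against 670, 645 and 684 FPKM in WT livers. The list's median difference was -0.03 in perfused and -0.01 in non-perfused livers, beside -0.02 and -0.01 over all genes tested.

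**Figure D1:**
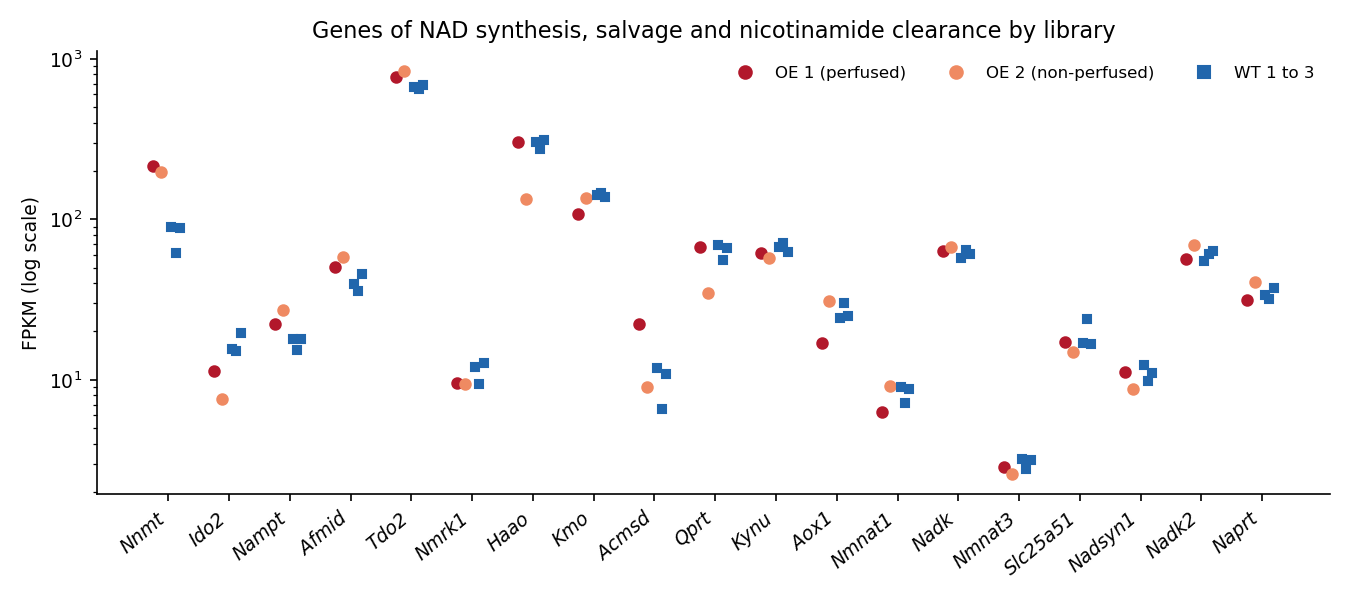
FPKM on a log scale of 19 genes of NAD synthesis, salvage and nicotinamide clearance, ordered by p, with circles for OE 1 and OE 2 and squares for WT 1 to WT 3. Nnmt shows a wide gap, 214 and 198 FPKM in OE livers over 62.1 to 88.9 FPKM in WT livers, while Nampt at 22.4 and 27.2 FPKM lies a little above WT.

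Enzymes that consume NAD mostly lay near WT. Of 17 measured genes, 1 was higher and 1 was lower without overlap, beside 8.7% and 12.4% of all genes tested. The median difference of the 17 was 0.00 in perfused and -0.18 in non-perfused livers. Sirt2, a cytosolic deacetylase, had 11.3 and 14.0 FPKM in OE livers, against 10.1, 9.75 and 11.2 FPKM in WT livers. Sirt1, the nuclear deacetylase, had 3.70 and 3.15 FPKM in OE livers, against 4.58, 4.32 and 3.36 FPKM in WT livers. OE 2 lay below all 3 WT values of Sirt1 and OE 1 lay between them and its adjusted limma p was 0.80.

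Across the whole table, 2 of 10840 genes (0.0185%) passed the test of OE against WT, 1 higher (0.00923%) and 1 lower (0.00923%). Abhd2, a lipase-like hydrolase, rose. It had 36.1 and 45.2 FPKM in OE livers, against 12.995, 11.8 and 15.9 FPKM in WT livers, means of 40.6 ± 6.43 and 13.6 ± 2.12 FPKM (SD, n = 2 and n = 3). The log2 difference was 1.46 ± 0.11 with a 95% interval of 1.18 to 1.74 and an adjusted limma p of 0.0491, and it was 1.47 within perfused and 1.45 within non-perfused livers. The IG library had 13.6 FPKM, inside the WT range, while the Het libraries, run in the lane of OE 1, had 38.2 and 35.4 FPKM, near OE. After APAP at 200 mg/kg Abhd2 had 80.2 and 43.0 FPKM in OE livers, against 33.6, 36.8 and 32.7 FPKM in WT livers. Those OE livers were run in lanes L004 and L008, the second perfused and from a 12-week-old mouse. The WT livers after APAP were all run in L005, non-perfused and from 11-week-old mice, so genotype and lane cannot be told apart there either.

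Serpina12, which encodes the secreted serpin vaspin, fell. It had 1.32 and 2.23 FPKM in OE livers, against 13.4, 12.7 and 13.04 FPKM in WT livers, a tight WT group far above both OE values. The log2 difference was -2.39 ± 0.17 with a 95% interval of -2.81 to -1.97 and an adjusted limma p of 0.0491. It was -2.60 within perfused and -2.12 within non-perfused livers. The Het libraries had 8.49 and 10.9 FPKM and the IG library 16.1 FPKM. Both calls lay just under the threshold, and both were lost when WT 1 was left out (adjusted p 0.295 for each) or WT 2 was left out (adjusted p 0.157 for each).

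Without adjustment, 931 genes (8.59%) had a limma p under 0.05, 332 of them (3.06% of those tested) higher and 599 (5.53%) lower in OE livers. Within perfused livers 190 genes (1.75%) were at least 2-fold higher and 118 (1.09%) at least 2-fold lower in OE, and within non-perfused livers 286 (2.64%) were higher and 439 (4.05%) lower. A difference of at least 2-fold in the same direction within perfused and within non-perfused livers was found for 17 genes (0.157%) that were higher in OE and 36 (0.332%) that were lower. Another 60 genes (0.554%) passed 2-fold in opposite directions. The genes below are those with no overlap between OE and WT livers, ranked by the smaller of the 2 within-perfusion differences, and since only Abhd2 and Serpina12 passed the test they are given as values.

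**Figure D2:**
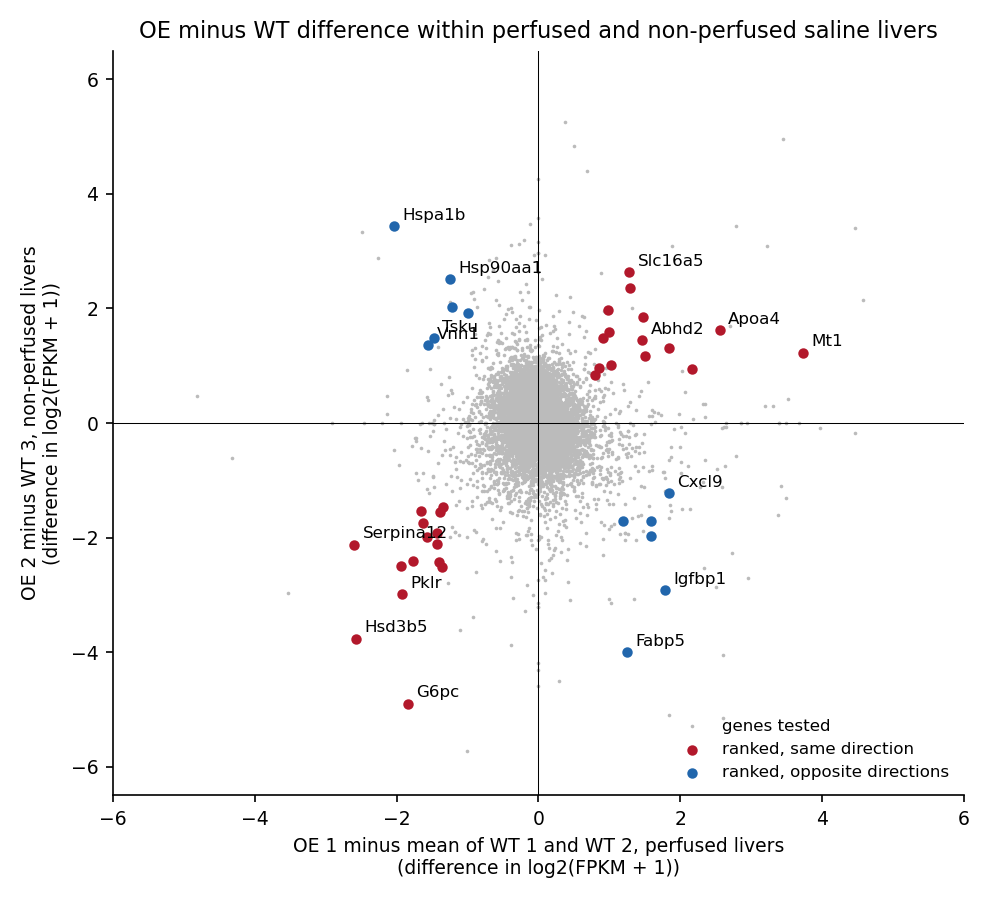
Difference in log2(FPKM + 1) between OE 1 and the mean of WT 1 and WT 2 in perfused livers (horizontal axis) against that between OE 2 and WT 3 in non-perfused livers (vertical axis), 1 point per gene tested, with ranked genes in red (same direction) and blue (opposite directions). Serpina12, Hsd3b5 and Pklr lie low on both axes, while Hspa1b lies at -2.04 and 3.44.

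Of the 15 ranked genes higher in both OE livers, Apoa4, an apolipoprotein of lipid-rich particles, had 854 and 440 FPKM in OE livers, against 147, 141 and 142 FPKM in WT livers. Its log2 difference was 2.16 ± 0.22 with an adjusted limma p of 0.067. The antisense transcript Gm10680 overlaps Apoa4, and since the strand setting of the counting is not given, reads from the pair cannot be told apart. Cyp17a1, the steroid 17-alpha-hydroxylase, had 14.7 and 11.0 FPKM in OE livers, against 3.08, 3.67 and 3.84 FPKM in WT livers. Hsd17b6, a hydroxysteroid dehydrogenase, had 99.3 and 59.2 FPKM in OE livers, against 48.5, 47.7 and 28.7 FPKM in WT livers. Both OE livers stood above every WT liver for these genes.

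Mt1, a metal-binding metallothionein, had 106 and 26.5 FPKM in OE livers, against 6.75, 7.27 and 10.7 FPKM in WT livers. OE 1 was far above OE 2, and the difference was 3.74 in perfused and 1.23 in non-perfused livers. Igfbp2, an insulin-like growth factor binding protein, had 329 and 526 FPKM in OE livers, against 209, 146 and 188 FPKM in WT livers. Gadd45a, a stress-inducible gene of growth arrest, had 6.27 and 8.16 FPKM in OE livers, against 1.93, 1.33 and 1.53 FPKM in WT livers. Id1, an inhibitor of helix-loop-helix factors, had 3.74 and 12.7 FPKM in OE livers, against 0.735, 1.16 and 1.68 FPKM in WT livers. Each of these was higher in both OE livers, with OE 2 above OE 1 for all but Mt1. Asns, Etnppl, Hes1, Slc16a5, Slco1a4, Nnmt and Epb41l4aos make up the rest of the 15 with Abhd2. After APAP at 200 mg/kg, in other libraries than those ranked, 9 of the 15 were higher in both OE than in all WT livers, against 16.5% of all genes. The OE livers after APAP were run in the lanes of OE 2 and OE 1 (L004 and L008) and the WT livers in L005. Genotype and lane cannot be told apart in those libraries either.

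Of the genes lower in both OE livers, Hsd3b5, a hydroxysteroid dehydrogenase of male mouse liver, had 25.8 and 8.50 FPKM in OE livers, against 155, 163 and 128 FPKM in WT livers. Its log2 difference was -3.08 ± 0.29 with an adjusted limma p of 0.054. Pklr, whose upstream sequence is shown above, had 16.1 and 12.8 FPKM in OE livers, against 67.2, 61.0 and 108 FPKM in WT livers, a log2 difference of -2.38 ± 0.24 and an adjusted limma p of 0.067. Every WT value of Pklr was well above both OE values. The Het livers had 23.4 and 26.3 FPKM. Hcn3, an ion channel gene on the other strand, overlaps Pklr and had 1.83 and 1.81 FPKM in OE livers, against 8.71, 8.64 and 14.0 FPKM in WT livers, and reads from the pair cannot be told apart without the strand setting.

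G6pc, the glucose-6-phosphatase that releases glucose from hepatocytes, had 58.3 and 3.59 FPKM in OE livers, against 125, 356 and 136 FPKM in WT livers. The WT livers alone spanned a wide range, and OE 2 was far below OE 1. Rgs16, a regulator of G protein signalling, had 4.67 and 1.67 FPKM in OE livers, against 15.6, 27.6 and 14.0 FPKM in WT livers. Ces2c, a carboxylesterase, had 21.7 and 20.1 FPKM in OE livers, against 81.8, 60.8 and 60.4 FPKM in WT livers. Errfi1, a feedback inhibitor of the epidermal growth factor receptor, had 157 and 109 FPKM in OE livers, against 386, 467 and 416 FPKM in WT livers. All 4 lay below every WT liver in both OE livers. Aacs, Angptl4, Cnmd, Cyp2d40, Hectd2os, Slc22a7 and Slco1a1 complete the 15 with Serpina12. After APAP, with the same split of lanes by genotype, 4 of the 15 were lower in both OE than in all WT livers, against 10.4% of all genes.

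**Figure D3:**
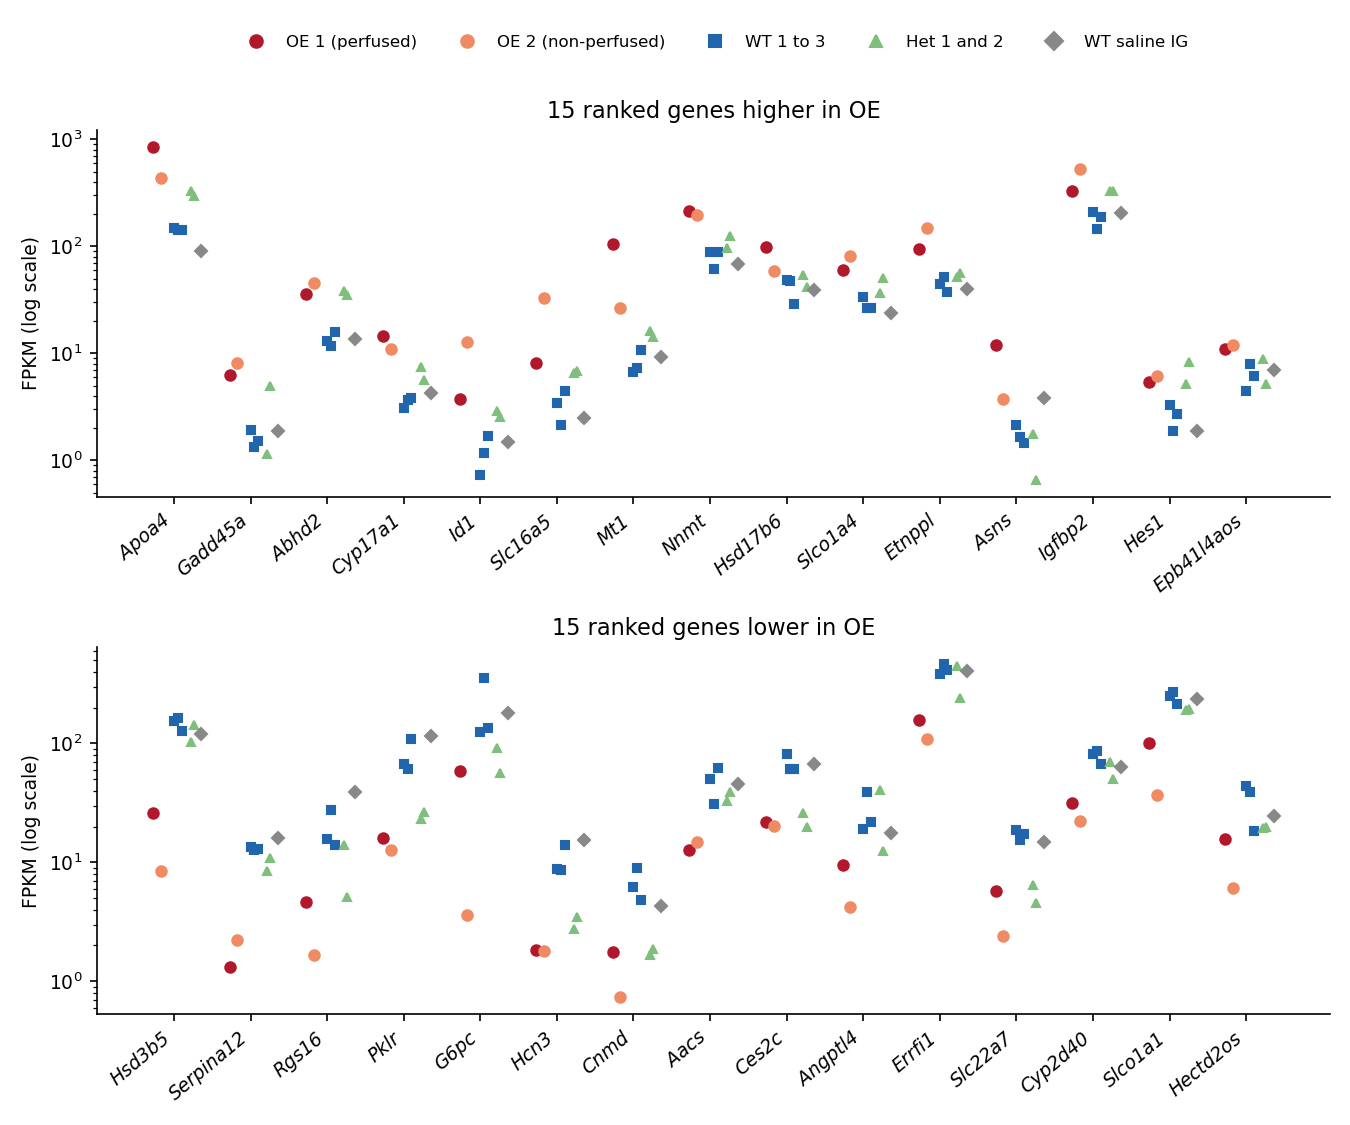
FPKM on a log scale of the 15 ranked genes higher (top) and 15 lower (bottom) in OE livers, with OE 1 and OE 2 left of WT 1 to WT 3, then Het 1 and 2 and the IG library. OE and WT points do not overlap for any gene, as the ranking required, and the Het livers lie near OE for Abhd2 and near WT for Hsd3b5.

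Many genes of fatty acid synthesis were lower in both OE livers, with larger differences in OE 2. Of 20 measured genes, 10 were below all WT livers in both OE livers and 0 were above, and 5 were lower by at least 2-fold in both, beside 12.4%, 8.7% and 0.332% of all genes tested in the same order. The list summed to 2819 and 979 FPKM in OE livers, against 2813, 2446 and 4020.2 FPKM in WT livers, so by its sum OE 1 lay within the WT range. The Het livers were low as well, with sums of 1665 and 1623 FPKM. The median OE minus WT difference over the list was -0.42 in perfused and -1.94 in non-perfused livers. Me1, malic enzyme, which supplies NADPH, had 32.1 and 29.0 FPKM in OE livers, against 65.4, 83.9 and 112 FPKM in WT livers. Elovl6, a fatty acid elongase, had 12.9 and 14.3 FPKM in OE livers, against 28.8, 29.5 and 58.4 FPKM in WT livers. Mlxipl, which encodes ChREBP, had 21.8 and 14.0 FPKM in OE livers, against 36.4, 34.9 and 23.4 FPKM in WT livers. No OE value of these 3 genes reached the lowest WT value. Me1 was low in the Het livers too, at 33.6 and 33.0 FPKM.

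Fasn, fatty acid synthase, and Scd1 and Thrsp were named after their values were seen. Fasn had 56.9 and 20.8 FPKM in OE livers, against 128, 91.7 and 227 FPKM in WT livers, and 37.8 and 38.0 FPKM in Het livers. Scd1, the stearoyl-CoA desaturase, had 792 and 48.6 FPKM in OE livers, against 609, 692 and 1124 FPKM in WT livers, so only OE 2 was below WT. Thrsp, a lipogenic nuclear protein, had 252 and 16.1 FPKM in OE livers, against 636, 402 and 911 FPKM in WT livers. In 9 of the 20 genes the difference in non-perfused livers was below that in perfused livers past a limma test of the difference between the 2, and in 1 it was above; over all genes 313 (2.89%) and 210 (1.94%) passed in these directions. That test was chosen after seeing the data, and its spread came from the pairs WT 1 with WT 2 and Het 1 with Het 2, each run in 1 lane, with 2 residual degrees of freedom.

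Genes that store and release glucose showed a mixed pattern. Slc2a2, the hepatocyte glucose transporter, had 109 and 112 FPKM in OE livers, against 216, 225 and 235 FPKM in WT livers, a log2 difference of -1.03 ± 0.12 and an adjusted limma p of 0.07. Pygl, glycogen phosphorylase, had 117 and 88.8 FPKM in OE livers, against 204, 203 and 251 FPKM in WT livers. Gys2, glycogen synthase, had 130 and 135 FPKM in OE livers, against 98.3, 79.7 and 76.4 FPKM in WT livers. Thus a transporter and a breakdown enzyme were lower, and the synthase higher, in both OE livers. Of the 18 genes of this list 4 were lower and 1 higher without overlap, beside 12.4% and 8.7% of all genes tested.

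Genes with higher expression in male than in female mouse liver were mostly lower in OE livers, although all 5 mice were male. Of 21 measured male-biased genes, 9 were below all WT livers in both OE livers and 0 were above, against 12.4% and 8.7% of all genes. In both, 4 of the 21 were lower by at least 2-fold, against 0.332% of all genes. Their median difference was -0.76 in perfused and -0.50 in non-perfused livers. Besides Hsd3b5, Cyp4a12a, a fatty acid hydroxylase, had 27.1 and 34.7 FPKM in OE livers, against 74.4, 88.1 and 82.2 FPKM in WT livers. Slco1a1, an organic anion transporter, had 102 and 36.8 FPKM in OE livers, against 252, 273 and 214 FPKM in WT livers. Elovl3, a fatty acid elongase, had 49.0 and 14.9 FPKM in OE livers, against 87.5, 114 and 43.1 FPKM in WT livers, so OE 1 and WT 3 overlapped. Of 7 measured female-biased genes, 2 were higher without overlap and 0 lower. Those were Cyp17a1, above, and Abcd2, a peroxisomal transporter, at 11.1 and 5.71 FPKM in OE livers, against 2.77, 3.52 and 3.09 FPKM in WT livers. Cyp2a4 had 17.3 and 0.377 FPKM in OE livers, against 0.11, 0.219 and 0.459 FPKM in WT livers, so OE 1 alone was high.

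Growth hormone acts on the liver through its receptor and Stat5, and its pulses shape sex-biased expression. Ghr, the receptor, had 178 and 184 FPKM in OE livers, against 247, 245 and 242 FPKM in WT livers, a log2 difference of -0.43 ± 0.13 with an adjusted limma p of 0.41. Egfr, the epidermal growth factor receptor, had 98.3 and 93.9 FPKM in OE livers, against 159, 202 and 134 FPKM in WT livers. Both were below every WT liver. Igf1, the main growth hormone target, named after its values were seen, had 226 and 193 FPKM in OE livers, against 217, 205 and 200 FPKM in WT livers, with OE 1 above and OE 2 below all of them. Over the 12 genes of the list, 2 were higher and 2 lower without overlap, beside 8.7% and 12.4% of all genes.

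Hepatocytes around the portal vein and around the central vein express different genes. Of 18 measured periportal genes, 8 were above all WT livers in both OE livers and 1 was below, and of 15 measured pericentral genes, 0 were above and 7 below, beside 8.7% higher and 12.4% lower of all genes tested. The median difference of the periportal genes was 0.54 in perfused and 0.06 in non-perfused livers, and that of the pericentral genes was -0.66 and -0.26. Asl, the argininosuccinate lyase of the urea cycle, had 359 and 998 FPKM in OE livers, against 266, 217 and 309 FPKM in WT livers. Etnppl, a phospholyase, had 94.9 and 149 FPKM in OE livers, against 44.1, 51.5 and 37.4 FPKM in WT livers. Hsd17b13, a lipid droplet dehydrogenase, had 249 and 262 FPKM in OE livers, against 161, 187 and 178 FPKM in WT livers. The 1 periportal gene below was Cyp2f2, a P450, at 265 and 220 FPKM in OE livers, against 349, 354 and 378 FPKM in WT livers.

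Among the pericentral genes, Cyp1a2, a drug-oxidising P450, had 93.7 and 38.1 FPKM in OE livers, against 271, 191 and 270 FPKM in WT livers. Lect2, a secreted chemotaxin, had 50.3 and 78.3 FPKM in OE livers, against 124, 106 and 126 FPKM in WT livers. Gulo, of ascorbate synthesis, had 96.3 and 77.7 FPKM in OE livers, against 177, 138 and 195 FPKM in WT livers. Glul and Cyp2e1, also on the pericentral list, were named after their values were seen. Glul, glutamine synthetase, had 101.5 and 313 FPKM in OE livers, against 354, 320.5 and 374 FPKM in WT livers. Cyp2e1, which activates APAP, had 734 and 3831 FPKM in OE livers, against 2009, 2238 and 1999 FPKM in WT livers. For Cyp2e1 the OE livers lay on either side of WT, with differences of -1.53 in perfused and 0.94 in non-perfused livers that differed from each other with an adjusted p of 0.0067 in limma's test. The pericentral genes summed to 1815 and 5908 FPKM in OE livers, against 3956, 3852 and 4018 FPKM in WT livers. Cyp2e1 alone made up 3831 of the 5908 FPKM in OE 2, where the median difference of the list was -0.26.

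When OE 2 was left out, limma called 98 genes (0.904%) higher and 93 (0.858%) lower, and leaving out OE 1 gave 312 (2.88%) higher and 427 (3.94%) lower. With the perfusion term OE 1 was set against WT 1 and WT 2, and OE 2 against WT 3, so the second pair of counts rests on 1 liver against 1. Both take the lone livers to vary like the pairs WT 1 with WT 2 and Het 1 with Het 2. The differences in perfused and in non-perfused livers, which share no library, had a Pearson r of -0.08 across 10840 genes and -0.07 across the 6448 with a mean of at least 5 FPKM. The sign was the same in 4776 genes (44.1%). Of single genes, Fabp5, a fatty acid binding protein, had 96.5 and 1.11 FPKM in OE livers, against 43.4, 36.5 and 32.7 FPKM in WT livers. OE 1 was above every WT liver and OE 2 below every one.

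**Figure D4:**
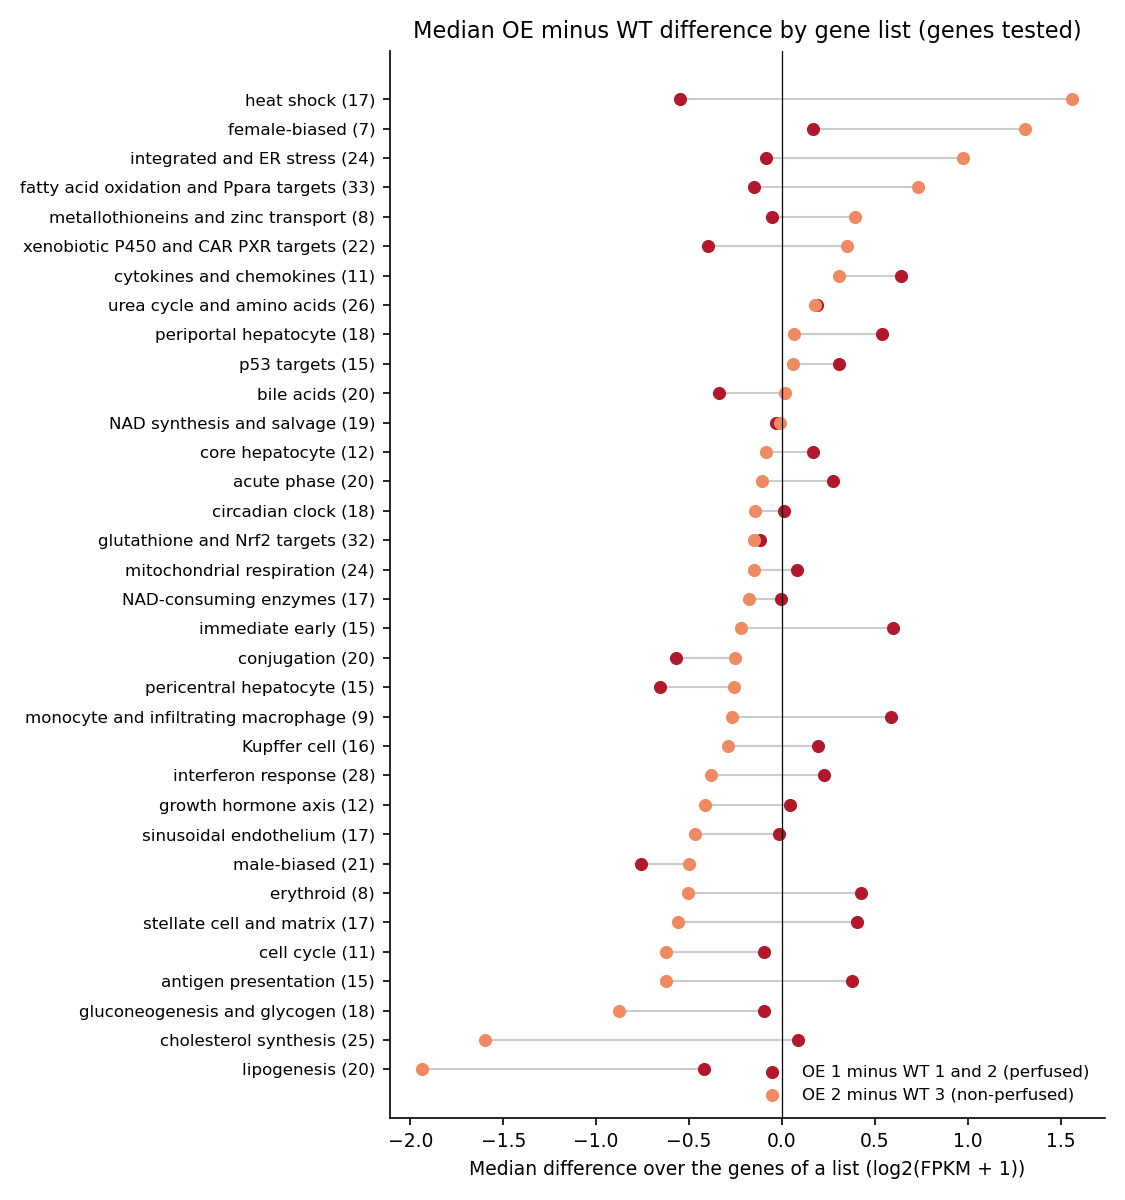
Median difference in log2(FPKM + 1) over the genes of each list with at least 5 genes tested (number in brackets), in dark red for OE 1 minus WT 1 and WT 2 (perfused) and in orange for OE 2 minus WT 3 (non-perfused), ordered by the non-perfused value. The heat shock list lies at -0.55 and 1.56 on opposite sides of 0, and the cholesterol list at 0.09 and -1.60.

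Heat shock genes showed the widest contrast between the OE livers among the lists plotted. Of 17 measured genes, 0 were higher in OE 1 than the mean of WT 1 and WT 2 and 17 were higher in OE 2 than WT 3, with medians of -0.55 and 1.56. Over all genes tested the medians were -0.02 and -0.01, so in each comparison fewer genes were higher than lower. The sign was the same in both for 44.1% of all genes. Later counts of this kind are to be read beside these values. In 13 of the 17 heat shock genes the difference in non-perfused livers exceeded that in perfused livers past the test, beside 1.94% of all genes tested. Hspa1b, the inducible Hsp70, had 0.583 and 87.4 FPKM in OE livers, against 4.26, 7.03 and 7.13 FPKM in WT livers. Hsp90aa1, the inducible Hsp90, had 43.2 and 501 FPKM in OE livers, against 80.8, 133 and 87.1 FPKM in WT livers. Dnajb1, an Hsp40 cochaperone, had 3.78 and 39.6 FPKM in OE livers, against 10.4, 9.91 and 8.98 FPKM in WT livers. For all 3, OE 1 was the lowest and OE 2 the highest of the 5 livers. Bag3, a cochaperone, had 3.02 and 44.2 FPKM in OE livers, against 4.35, 6.31 and 6.11 FPKM in WT livers. Hspb1, whose upstream sequence is shown above and which was named after its values were seen, had 7.42 and 97.4 FPKM in OE livers, against 12.5, 18.8 and 19.3 FPKM in WT livers. The mitochondrial chaperonin Hspe1 had 151 and 284 FPKM in OE livers, against 150, 153 and 186 FPKM in WT livers.

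Cholesterol synthesis genes were low in OE 2, while OE 1 lay near WT. Of 25 measured genes, 18 were higher in OE 1 and 0 in OE 2 by the same measure, with medians of 0.09 and -1.60. In 12 the difference in non-perfused livers was below that in perfused livers past the test, beside 2.89% of all genes tested. Nsdhl, a sterol dehydrogenase, had 40.5 and 3.97 FPKM in OE livers, against 50.5, 42.6 and 47.2 FPKM in WT livers. Fdps, farnesyl diphosphate synthase, had 372 and 56.8 FPKM in OE livers, against 454, 383 and 409 FPKM in WT livers. Idi1, an isomerase that supplies Fdps, had 98.1 and 28.7 FPKM in OE livers, against 112, 104 and 105 FPKM in WT livers. Acat2, a thiolase of the first step, had 37.6 and 11.0 FPKM in OE livers, against 42.9, 38.2 and 48.5 FPKM in WT livers. In these 4 genes OE 1 lay a little below the WT livers and OE 2 far below. The list summed to 2542 and 776 FPKM in OE livers, against 2669, 2080 and 2713 FPKM in WT livers.

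**Figure D5:**
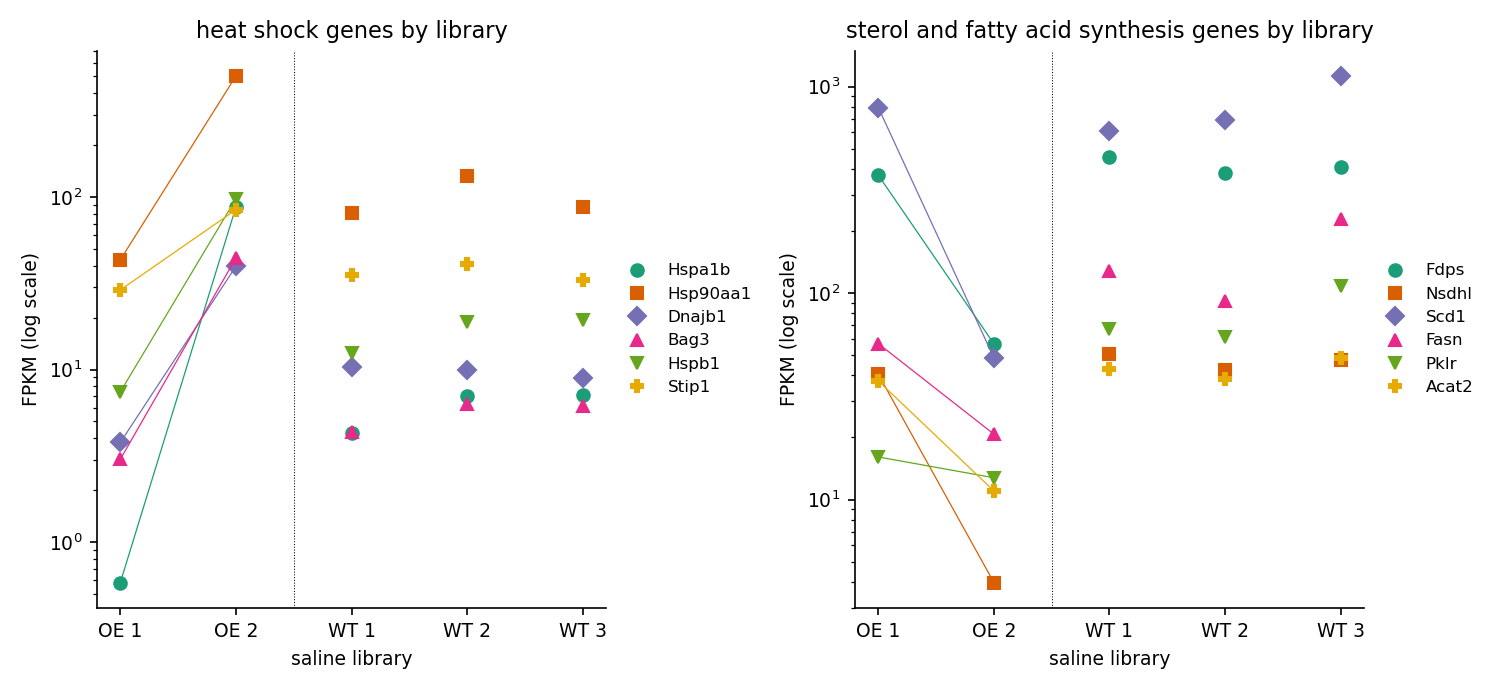
FPKM on a log scale in the 5 saline libraries for 6 heat shock genes (left) and 6 genes of sterol and fatty acid synthesis (right), with thin lines joining OE 1 and OE 2 and a dotted line before the WT libraries. Hspa1b had 0.583 FPKM in OE 1 and 87.4 FPKM in OE 2, while Fdps had 372 FPKM in OE 1 and 56.8 FPKM in OE 2.

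Genes of the endoplasmic reticulum stress response and of fatty acid oxidation were also higher mainly in OE 2. Of 24 stress genes, 9 were higher in OE 1 and 20 in OE 2, and 5 were above WT in both without overlap, beside 8.7% of all genes tested. Dnajb9, a chaperone of the reticulum named after its values were seen, had 36.3 and 140 FPKM in OE livers, against 26.8, 32.6 and 35.2 FPKM in WT livers. Fgf21, a fasting hormone, had 2.195 and 5.49 FPKM in OE livers, against 0.591, 0.877 and 0.062 FPKM in WT livers, and Asns, asparagine synthetase, had 12.0 and 3.76 FPKM in OE livers, against 2.15, 1.64 and 1.47 FPKM in WT livers. Creld2 and Hspa5, named after their values were seen, were high in OE 2 alone. Creld2 had 26.2 and 260.15 FPKM in OE livers, against 25.6, 31.7 and 22.4 FPKM in WT livers. Hspa5, the BiP chaperone, had 491 and 1863 FPKM in OE livers, against 493, 592 and 455 FPKM in WT livers.

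Of 33 fatty acid oxidation and Ppara target genes, 11 were higher in OE 1 and 28 in OE 2. The test of the difference between the 2 within-perfusion differences was passed by 12, all higher in non-perfused livers, beside 1.94% of all genes tested. Cpt1a, which carries fatty acids into mitochondria, was higher in both, at 97.4 and 107 FPKM in OE livers, against 65.6, 63.3 and 68.1 FPKM in WT livers, a log2 difference of 0.61 ± 0.12 with an adjusted limma p of 0.23. Cyp4a10, a fatty acid hydroxylase named after its values were seen, had 104 and 1299.6 FPKM in OE livers, against 177, 141 and 175 FPKM in WT livers. The Het livers, perfused like OE 1, had 1147 and 1094 FPKM of Cyp4a10. Fabp1, the liver fatty acid binding protein, also named after its values were seen, had 6698 and 3331 FPKM in OE livers, against 8228, 8410.4 and 7122 FPKM in WT livers, below WT in both.

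Markers of other cells also differed between the livers, and their part in the results was not tested. Of 17 sinusoidal endothelial genes, 1 was higher and 6 were lower in both OE livers without overlap, beside 8.7% and 12.4% of all genes tested. The list of 18 summed to 163 and 114 FPKM in OE livers, against 163, 166 and 187 FPKM in WT livers. Rspo3, an endothelial signal to pericentral hepatocytes, had 1.45 and 2.04 FPKM in OE livers, against 3.08, 3.24 and 3.22 FPKM in WT livers. Lyve1, an endothelial hyaluronan receptor, had 4.56 and 3.71 FPKM in OE livers, against 1.56, 2.28 and 2.06 FPKM in WT livers. Most of the other lists were higher in OE 1 and lower in OE 2. Of 17 stellate and matrix genes, 16 were higher in OE 1 and 2 in OE 2, and the whole list of 22 summed to 267 and 171 FPKM in OE livers, against 192, 196 and 213 FPKM in WT livers. Col3a1, a fibrillar collagen, had 22.7 and 4.41 FPKM in OE livers, against 10.4, 8.41 and 16.7 FPKM in WT livers. Of 9 monocyte and macrophage markers, 9 were higher in OE 1 and 3 in OE 2, and their list of 18 summed to 158 and 64.1 FPKM in OE livers, against 89.3, 119 and 87.1 FPKM in WT livers. Cxcl9, an interferon-induced chemokine, had 12.0 and 1.09 FPKM in OE livers, against 2.86, 2.44 and 3.89 FPKM in WT livers. Kupffer markers summed to 457 and 260 FPKM in OE livers, against 427, 475 and 355 FPKM in WT livers, and none of the 16 was at 0. Of 15 antigen presentation genes, 13 were higher in OE 1 and 0 in OE 2. Neutrophil markers were low: 1 of 13 reached a mean of 1 FPKM, and the list summed to 11.2 and 2.14 FPKM in OE livers, against 3.81, 2.76 and 3.25 FPKM in WT livers. Erythroid genes summed to 233 and 188 FPKM in OE livers, against 193, 101 and 266 FPKM in WT livers.

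Other groups of liver genes held members on both sides, to be read beside 8.7% higher and 12.4% lower without overlap among all genes tested. Of 20 conjugation genes, 2 were higher and 9 lower, with medians of -0.57 in perfused and -0.25 in non-perfused livers. Among the lower was Ugt2b1, a glucuronosyltransferase, at 125 and 88.9 FPKM in OE livers, against 231, 247 and 230 FPKM in WT livers. Sult1a1, a phenol sulfotransferase, had 232 and 296 FPKM in OE livers, against 162, 159 and 166 FPKM in WT livers, above WT in both. Of 26 urea cycle and amino acid genes, 10 were higher and 2 lower, among them Got1, aspartate aminotransferase, at 167 and 187 FPKM in OE livers, against 105, 82.6 and 111 FPKM in WT livers. Cth, of cysteine synthesis, had 352 and 594 FPKM in OE livers, against 249, 201 and 209 FPKM in WT livers. Of 20 bile acid genes, 2 were higher and 8 lower, among them Slc10a1, the bile acid importer, at 150 and 238 FPKM in OE livers, against 312, 286 and 355 FPKM in WT livers.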

How the data were processed

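Paired-end libraries came from a kit that keeps strand, per the labels' protocols. Per the submitters' processing notes, the tools were Cufflinks 2.2.1 with Cuffdiff, TopHat2 2.0.9 and bcl2fastq 2.17.1.14, and the build was GRCm38.p5. Which annotation, strand setting and Cuffdiff version were used is not given in the sources used here. Each deposited value stands for a gene in a library and was read as FPKM from these tools and the values, since no header names the unit. Depth is unknown, so no counting interval is given. Of 46073 genes, 45225 had a symbol and 848 had none. Genes at 0 throughout a genotype and drug block with a mean of at least 10 FPKM in another block, and neighbours within 100 kb at 0 in the same blocks, were left out as failed estimates (114 genes, 30 of them protein-coding). Of 10901 genes averaging 1 FPKM or more across the 5 libraries, 10840 remained.

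limma 3.58.1 (R 4.3.3, statmod 1.5.0) was fitted to log2(FPKM + 1) over 7 saline libraries (2 OE, 3 WT and 2 Het, the Het adding only to the spread) with a term for perfusion, a trended and robust prior and Benjamini-Hochberg adjustment at 0.05, leaving 3 residual degrees of freedom. Fold changes on this scale understate those of low genes. With the perfusion term the OE minus WT difference weights the perfused livers 4 in 7. Alternatives changed the scaling, pseudocount, filter, prior, weights and libraries. No column belonged to an unmatched sample (0). Named genes are Nampt, those that passed, up to 15 in each direction without overlap and reaching 5 FPKM in the higher of both group means, ranked by the smaller within-perfusion difference, up to 6 in each direction with opposite differences, and up to 4 of each list by p; the rankings skip predicted genes, pseudogenes and small RNAs. The members and gene lists were chosen with earlier results of these data known. Promoter sequences are RefSeq's on GRCm38.p6. Members of multigene families (the Cyp2d, Cyp4a, Ugt2b, Mt, Saa and Serpina genes) may split reads among near copies, so their values are uncertain.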

Additional observations from a re-analysis of the deposited data

Results flagged for a closer look

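In 12 genes OE 1 lay to 1 side of the perfused WT livers and OE 2 on the other side of the non-perfused WT liver, each by a difference that ranked among the largest of this kind. The value given for each is the OE minus WT difference in non-perfused livers less that in perfused livers, in log2(FPKM + 1), with the adjusted p of a limma test of that quantity, which was chosen after seeing the data. The ranking took up to 6 genes in each direction by the same differences that the test compares, so these numbers are no result. Over all genes 210 (1.94%) passed with a positive and 313 (2.89%) with a negative value. The value was positive, with OE 2 high and OE 1 low, in 6 of the 12. Limma's test gave 5.48 for Hspa1b (adjusted p = 0.0078), 3.75 for Hsp90aa1 (adjusted p = 0.026) and 3.25 for Dnajb1 (adjusted p = 0.0067). The same limma test gave 2.91 for Dynll1 (adjusted p = 0.0073), 2.95 for Tsku (adjusted p = 0.038) and 2.91 for Vnn1 (adjusted p = 0.02). In the same limma test it was negative, with OE 1 high and OE 2 low, in the other 6: -5.25 for Fabp5 (adjusted p = 0.0073), -3.06 for Cxcl9 (adjusted p = 0.0099), -2.90 for Col3a1 (adjusted p = 0.011), -4.71 for Igfbp1 (adjusted p = 0.3), -3.56 for Foxq1 (adjusted p = 0.13) and -3.29 for Saa2 (adjusted p = 0.09). The last 3, Igfbp1, Foxq1 and Saa2, did not pass the threshold of 0.05. Tsku, a secreted proteoglycan, had 4.76 FPKM in OE 1 and 58 FPKM in OE 2, against 11.3, 19.7 and 20.1 FPKM in WT livers. Vnn1, a pantetheinase, had 3.9 FPKM in OE 1 and 20.6 FPKM in OE 2, against 11.2, 15.9 and 7.42 FPKM in WT livers. Igfbp1, an insulin-like growth factor binding protein, had 63.1 FPKM in OE 1 and 1.67 FPKM in OE 2, against 8.62, 34.5 and 19.1 FPKM in WT livers, where the WT livers alone differed widely. Saa2, an acute phase apolipoprotein with close copies that can share reads, had 72.6 FPKM in OE 1 and 5.84 FPKM in OE 2, against 21.8, 25.2 and 21.3 FPKM in WT livers. Dynll1, a dynein light chain, had 21.7 FPKM in OE 1 and 113 FPKM in OE 2, against 40.8, 47.8 and 29 FPKM in WT livers. Foxq1, a forkhead factor, had 12.5 FPKM in OE 1 and 1.62 FPKM in OE 2, against 6.02, 1.87 and 9.31 FPKM in WT livers.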

How the results depend on the processing

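The count of genes called for OE against WT, 2 with the reported settings, depended strongly on them. It was 39 with the IG library counted as WT, 28 with failed estimates kept, 7 after quantile normalisation, 5 with a pseudocount of 0.1, 4 with all 17 libraries in the fit, 1 with no perfusion term, 2 with the 5 OE and WT libraries alone and no such term, and 191 in perfused livers alone. It was 0 with those 5 libraries and the perfusion term, with array weights, with neither a robust nor a trended prior and with no filter on low values, where 636, 398, 916 and 1448 genes in turn had an unadjusted limma p under 0.05. Leaving out each library in turn gave 0 to 739 genes: 739 without OE 1, 191 without OE 2, 201 without WT 3, and 0 without WT 1 or WT 2, where 638 and 775 genes had an unadjusted p under 0.05. Abhd2 and Serpina12 kept their direction in every setting run, with values of 1.43 to 1.52 and -2.90 to -2.12, and adjusted p from 0.00768 to 0.295 for Abhd2 and from 0.00492 to 0.375 for Serpina12. The genes with no overlap numbered 2283, or 1463 with a mean of at least 5 FPKM and 3850 with no filter, and 2904 to 7759 when a library was left out, which lowers the bar. Nampt stayed higher in OE throughout, at 0.40 to 0.57. Set against the reported settings, the single-gene OE minus WT differences were labelled the same in 2051 comparisons, stronger in 197, weaker in 15 and moved in 73. In the refits, same means that the direction and the side of the 0.05 threshold were kept, whatever the size of the difference. Stronger and weaker mean that a gene came to pass or ceased to pass. Only the values in non-perfused livers alone were compared by size, against the SD of the WT livers. No reversal was recorded among these single-gene comparisons. Their genes were limited to those with no overlap between OE and WT livers, Nampt, Abhd2 and Serpina12 among them. Leaving out a library or the perfusion term therefore could not reverse them, and the lack of reversals in those settings is no result. The within-perfusion differences moved in 160 comparisons and were the same in 1320, and the list medians moved in 55 and were the same in 273. For those 2 kinds a change of sign was not recorded apart from other moves, so these counts cannot show whether any reversed. No paired analysis was possible because replicate numbers follow the order of deposit and nothing in the labels pairs the libraries. Genotype and lane cannot be told apart, perfused OE and WT livers also differ in age, each group has a single non-perfused liver, and the sequencing depth is unknown.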

Other observations

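Nuclear genes of mitochondrial respiration stayed close to WT in both OE livers. Of 24 measured genes, 0 were higher and 2 lower without overlap, beside 8.7% and 12.4% of all genes tested. Their median difference was 0.08 in perfused and -0.15 in non-perfused livers. Sdha, a subunit of succinate dehydrogenase, had 127 and 119.7 FPKM in OE livers, against 134, 137 and 156 FPKM in WT livers. Of 18 clock genes, 1 was higher and 1 lower without overlap, beside the same shares of all genes. The lower was Bhlhe40, a clock repressor, at 17.9 and 17.4 FPKM in OE livers, against 33.7, 24.7 and 33.6 FPKM in WT livers.

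Some abundant genes were listed at 0 in all 3 WT saline libraries and were high in both OE libraries, so they were treated as failed estimates and no difference was computed. Trf, the transferrin gene, was listed at 12025 and 7435 FPKM in OE livers and at 0 in WT livers. The same held for mt-Co3, at 14072 and 16288 FPKM in OE livers. Serpina4-ps1, a pseudogene that lies near Serpina12 on chromosome 12, had 5.52 and 5.42 FPKM in OE livers, against 105, 52.7 and 49.3 FPKM in WT livers, with no overlap. It was chosen after its values were seen.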
